A study of Schizosaccharomyces pombe with 5 samples.

Results

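Of the cytosolic ribosomal protein genes of fission yeast, Schizosaccharomyces pombe, 7 were examined here because a peak called for Mei2-TAP or for Msa1-TAP overlapped their coordinates: rpl301, rpl2802, rpl2301, rpl3201 and rpl3401 of the large subunit, and rps102 and rps502 of the small subunit. They are 7 of 138 nuclear genes for cytosolic ribosomal proteins and 7 of 5113 coding genes in the annotation. The genes were chosen by the deposited tags, folds and p-values themselves, so the tags and folds at these genes are given as a description, without a test. The material came from UV crosslinking and immunoprecipitation followed by sequencing (CLIP-Seq), in which RNA is crosslinked to a protein in cells, recovered with that protein and sequenced. Homothallic (h90) cells carried a TAP affinity tag on the RNA-binding protein Mei2 or on the RNA-binding protein Msa1, in each case at the C-terminus, or carried no tag. Per the labels, all had been grown in rich YES medium at 30 °C and moved to ME medium, which is poor in nitrogen and brings cells to meiosis. The labels give 4 h of starvation, while the growth protocol names samples taken at 4, 5 and 6 h, and the methods of the study name a different growth temperature and a lower one for ME medium.

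Per the labels there were 2 Mei2-TAP libraries, 2 Msa1-TAP libraries and 1 untagged library. The values below come from 1 list of peaks for each tagged protein, made from 1 tagged library, and both lists were called against the same untagged library. The Mei2-TAP library held 194019 tags, the Msa1-TAP library 359942 and the untagged library 252539, as recovered from the lists. The Msa1-TAP total, and with it the Msa1-TAP tags below, came from a fit. No value has a replicate check, and the 95% intervals given below allow only for counting error. Reads were amplified and no molecular identifiers were described. Tags may thus include copies of 1 molecule, and the intervals may be too narrow even for counting error. Every one of the 268 peaks was deposited on the plus strand, so an RNA of a gene cannot be told apart from an antisense RNA at the same place.

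Ribosomal proteins join with ribosomal RNA to form the large subunit, which makes peptide bonds, and the small subunit, which reads the mRNA. Their mRNAs are among the most abundant of growing cells, and their synthesis falls when TORC1 signalling drops, as it does on loss of nitrogen. Fission yeast makes many of these proteins from a pair of gene copies. Mei2 binds RNA through RNA recognition motifs and is needed for entry into meiosis, and Msa1 is another protein with such motifs, which the study tagged to see which RNAs are recovered with RNA-binding proteins in general.

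The sequences that carry the main features of the peaks are these. The coding stretch shared by the Mei2 and Msa1 peaks on rpl301 (ASM294v3 chrI:1757146-1757275, plus strand) is shown with the same stretch of its copy rpl302 (chrI:4917825-4917954, minus strand), with the single base that differs in capitals.

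rpl301: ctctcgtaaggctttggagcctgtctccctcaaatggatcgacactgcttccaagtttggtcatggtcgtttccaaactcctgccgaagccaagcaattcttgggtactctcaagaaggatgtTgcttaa
rpl302: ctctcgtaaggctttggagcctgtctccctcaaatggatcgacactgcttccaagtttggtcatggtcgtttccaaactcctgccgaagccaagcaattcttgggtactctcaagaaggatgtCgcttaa

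The difference is T1161C, counted from the first base of the coding sequence, rpl301 first. The coding stretch shared by both peaks on rps102 (chrI:898497-898612, minus strand) and the whole Mei2 peak on rpl2802 (chrIII:656822-657022, plus strand) are shown because each holds a match to the motif bound by Mmi1, the YTH-domain protein through which growing cells degrade their meiotic transcripts, with the match in capitals.

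rps102: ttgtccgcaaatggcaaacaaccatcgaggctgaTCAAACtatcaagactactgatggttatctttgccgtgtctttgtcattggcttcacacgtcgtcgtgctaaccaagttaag
rpl2802: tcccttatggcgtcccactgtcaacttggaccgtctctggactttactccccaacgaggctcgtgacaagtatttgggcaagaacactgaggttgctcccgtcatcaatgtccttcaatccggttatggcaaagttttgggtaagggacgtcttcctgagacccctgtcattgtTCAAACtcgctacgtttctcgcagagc

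The intron of rpl2301 (chrI:3179710-3179820, minus strand) and the 3′ part of the intron of rps502 (chrI:3496989-3497105, minus strand) are shown because Msa1 peaks covered them, with the bases at the splice sites in capitals.

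rpl2301: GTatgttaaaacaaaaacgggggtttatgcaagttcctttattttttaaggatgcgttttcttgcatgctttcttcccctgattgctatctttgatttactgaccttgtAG
rps502: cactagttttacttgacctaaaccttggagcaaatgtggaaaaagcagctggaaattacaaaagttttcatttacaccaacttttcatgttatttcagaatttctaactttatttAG

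The first comparison concerned which of these genes lay under a peak of which protein. Mei2 peaks lay on 3 of the 7 genes (rpl301, rps102 and rpl2802), Msa1 peaks on 6 (all but rpl2802), and both on 2 (rpl301 and rps102). Over all coding genes, 2.25% lay under a Mei2 peak and 2.54% under an Msa1 peak, by at least 1 nt of overlap on either strand. These background shares stand beside the counts of the 7 genes for reference only, because the lists chose the genes. Over the full set of 138 cytosolic ribosomal protein genes, 4 (2.90%) lay under a Mei2 peak, 7 (5.07%) under an Msa1 peak and 3 under both, while 16 of the 5113 coding genes lay under both. The set was proposed with these counts in view, and no test was made of it. Ribosomal protein genes are short, with a median of 680 nt against 1773 nt for all coding genes.

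By subunit, Mei2 peaks lay on 3 of 76 large-subunit (rpl) genes (3.95%) and on 1 of 55 small-subunit (rps) genes (1.82%). Msa1 peaks lay on 5 of the 76 rpl genes (6.58%) and on 2 of the 55 rps genes (3.64%). The shares over all coding genes were 2.25% for Mei2 and 2.54% for Msa1. None of the 7 rpp genes, for proteins of the ribosomal stalk, lay under a peak of either list. At those shares, 7 genes are too few for this to be informative. The only other cytosolic ribosomal protein gene under a peak was rpl402, for the large-subunit protein uL4, which lay under both; it is described with the rest below because its values are of the same kind.

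Tags are counted in steps of 0.5, as each read of a pair counts as 0.5. To set libraries of different size side by side, levels are also given as tags per 100000 tags of the library. The fold is the deposited one, tagged over untagged tags with both libraries on 1 scale, and the lists hold no fold under 4.01.

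The gene rpl301 encodes ribosomal protein L3 (uL3), a large-subunit protein whose core extension reaches towards the peptidyl transferase centre. Its Mei2 peak held 14.5 Mei2-TAP tags against 4.5 untagged tags, or 7.47 against 1.78 per 100000, a fold of 4.19 (interval 1.39 to 15.9). Its Msa1 peak held 33 Msa1-TAP tags against 5 untagged tags, or 9.17 against 1.98 per 100000, a fold of 4.63 (1.80 to 15.2). The Msa1 level of rpl301 was the highest level of the 9 peaks on the 7 genes, and its untagged level was the highest as well.

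The gene rpl2802 encodes the large-subunit protein uL15 and was the only one of the 7 found under Mei2 alone. Its peak held 10 Mei2-TAP tags against 2 untagged tags, or 5.15 against 0.792 per 100000. The deposited fold was 6.51, the highest of the 3 Mei2 folds, and rested on the fewest tags of the 9 peaks, so that its interval was the widest (1.39 to 61.1). The antisense non-coding RNA SPNCRNA.6960 lay under the same peak, and which of the 2 RNAs was recovered is not known. No other annotated gene lay under any of the remaining 8 peaks.

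The large-subunit genes rpl3401, rpl2301 and rpl3201 lay under Msa1 alone. The rpl3401 peak, on a gene for ribosomal protein L34 (eL34), held 26.5 Msa1-TAP tags against 2.5 untagged tags, or 7.36 against 0.990 per 100000. Its fold of 7.44 (2.09 to 47.3) was the highest of the 9 and the only 1 of them with an interval wholly above 2. The rpl2301 peak, on a gene for ribosomal protein L23 (uL14), which lies on the face of the large subunit that meets the small subunit, held 25.5 Msa1-TAP tags against 3 untagged tags, or 7.08 against 1.19 per 100000, with a fold of 5.96 (1.82 to 30.8). The rpl3201 peak, on a gene for ribosomal protein L32 (eL32), held 21 Msa1-TAP tags against 3 untagged tags, or 5.83 against 1.19 per 100000, with a fold of 4.91 (1.47 to 25.7). The intervals of these 3 folds overlapped over most of their length, so the order of the folds is not resolved.

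In the small subunit, rps102 encodes eS1, a protein near the channel by which mRNA leaves the ribosome. Its Mei2 peak held 14 Mei2-TAP tags against 4.5 untagged tags, or 7.22 against 1.78 per 100000, and its fold of 4.05 (1.33 to 15.4) was the lowest of the 9. Its Msa1 peak held 20.5 Msa1-TAP tags against 2.5 untagged tags, or 5.70 against 0.990 per 100000, a fold of 5.75 (1.57 to 37.2). The untagged tags differ between these peaks because the 2 windows were not the same, although the untagged library was. The gene rps502 encodes uS7, a protein of the small-subunit head, and lay under Msa1 alone, with 27 Msa1-TAP tags against 4.5 untagged tags, or 7.50 against 1.78 per 100000, and a fold of 4.21 (1.54 to 15.1).

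The rpl402 peaks fell in the same range. The Mei2 peak held 11.5 Mei2-TAP tags against 3 untagged tags, a fold of 4.99 (1.33 to 27.7), and the Msa1 peak held 23.5 Msa1-TAP tags against 3 untagged tags, a fold of 5.50 (1.66 to 28.6). The gene start of rpl402 lay inside both peaks, and 82.1% of the Mei2 peak and 76.6% of the Msa1 peak lay in the gene. The non-coding RNA SPNCRNA.6211, on the other strand, also lay under both, so the RNA recovered is not known.

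**Figure D1:**
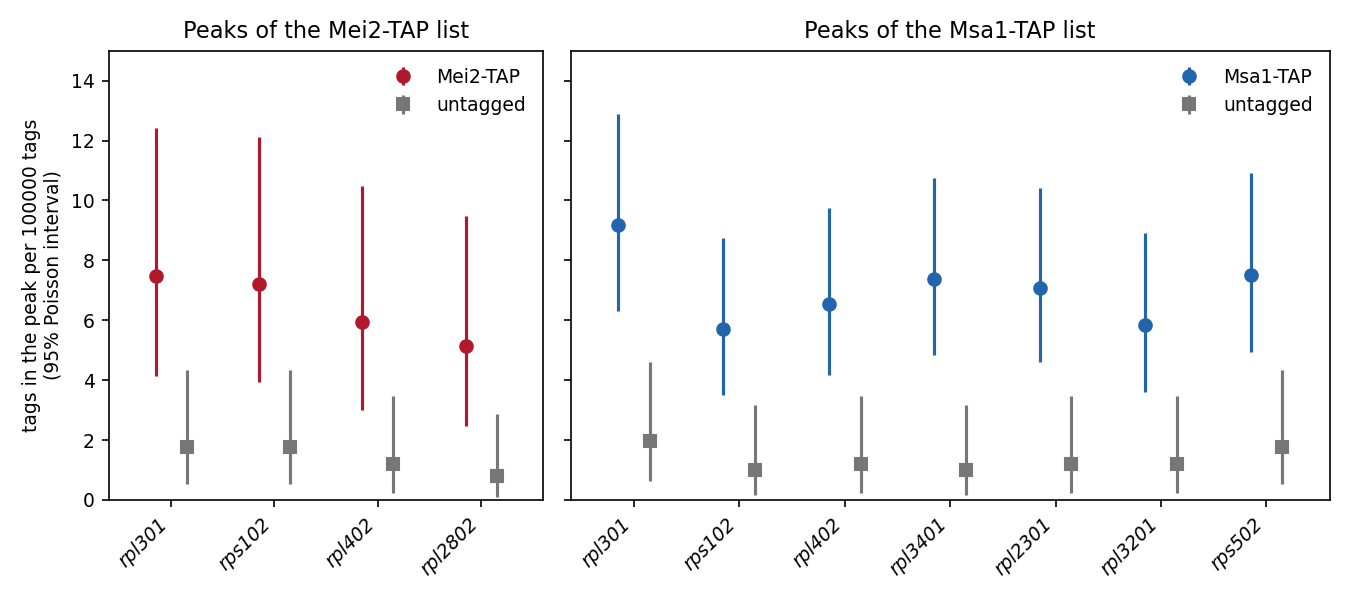
Tags in each peak on a ribosomal protein gene, per 100000 tags of the library (vertical axis), for peaks of the Mei2-TAP list (left) and of the Msa1-TAP list (right); circles are the tagged library, squares the untagged library, and bars are 95% Poisson intervals of counting error. Tagged levels on the 7 genes and rpl402 run between 5.15 and 9.17, above untagged levels of 0.792 to 1.98, and the bars of the 2 libraries overlap in every Mei2-TAP peak and in no Msa1-TAP peak. The Mei2-TAP peaks rest on fewer tags (10 to 14.5, beside 20.5 to 33 for Msa1-TAP). The overlap of bars is therefore not a comparison of the 2 proteins.

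The next comparison concerned how shallow the peaks were. The 3 Mei2 peaks held 38.5 Mei2-TAP tags in all against 11 untagged tags, and the 6 Msa1 peaks 153.5 Msa1-TAP tags against 20.5 untagged tags. These sums were 0.0198% of all Mei2-TAP tags and 0.0426% of all Msa1-TAP tags. With tags pooled over the genes, the ratio was 4.56 (2.29 to 9.87) for Mei2-TAP over untagged and 5.25 (3.30 to 8.79) for Msa1-TAP over untagged, again as a description of peaks selected for a high ratio. For scale, the deepest peak of the Mei2 list, at meiRNA, the non-coding RNA partner of Mei2, held 5277.5 tags.

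The distance to a fold of 4 shows how few tags set some of these peaks above it. This threshold was inferred from the lowest fold in the lists, 4.01, as the methods of the study name none. Other criteria of the peak calling were not examined. Given the untagged tags at each peak, a fold of 4 corresponds to 13.8 Mei2-TAP tags at both rps102 and rpl301, so that rps102 lay 0.171 tags and rpl301 0.671 tags inside the threshold. Both distances are under 1 tag, the weight of 1 read pair. The Mei2 peak of rpl2802 lay 3.85 tags inside it. Among the Msa1 peaks, rps502 lay 1.34 tags inside the threshold, rpl3201 3.90, rpl301 4.49, rps102 6.25, rpl2301 8.40 and rpl3401 12.2. For rpl402 the distance was 2.28 tags in the Mei2 list and 6.40 tags in the Msa1 list. Regions below the threshold were not analysed here.

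For all 9 peaks the interval of the ratio lay wholly above 1, as it did for all 128 Mei2 and all 140 Msa1 peaks. The lists hold only peaks chosen for a high fold, none under 4.01, so this follows from the selection. It lay wholly above 2 for 0 of the 3 Mei2 peaks, beside 47 of 128 in the whole list, and for 1 of the 6 Msa1 peaks, rpl3401, beside 45 of 140. It lay wholly above 4 for none of the 9, beside 8 Mei2 and 4 Msa1 peaks in the whole lists.

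**Figure D2:**
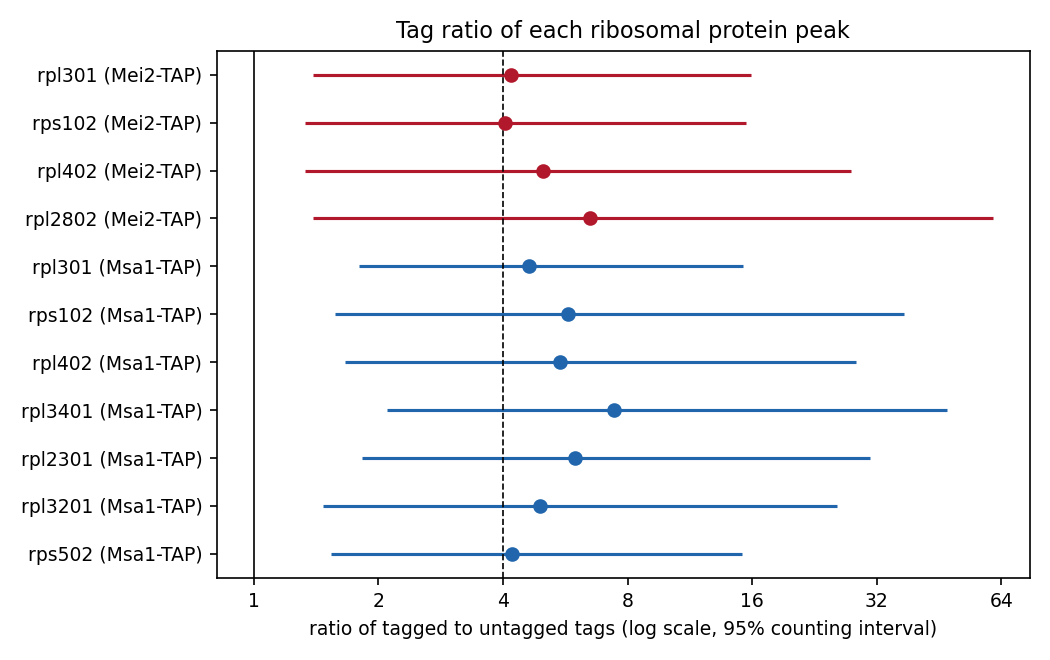
Ratio of tagged to untagged tags, scaled by library totals, for each peak on a ribosomal protein gene (log axis), with 95% counting intervals; the solid line marks a ratio of 1 and the dashed line the list minimum of 4. Every interval crosses the dashed line, and only that of rpl3401 in the Msa1-TAP list starts above 2, at 2.09.

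Set among all the peaks of their lists, those of the 7 genes were ordinary in tags. The median of the Mei2 peaks was 14 tags (10 to 14.5) beside 13.25 tags over the 128 peaks, and the median of the Msa1 peaks was 26 tags (20.5 to 33) beside 23.5 tags over the 140 peaks. The median fold was 4.19 for the 3 Mei2 peaks beside 5.86 over the list, and 5.33 for the 6 Msa1 peaks beside 5.37 over the list. By fold, the Mei2 peaks of rpl2802, rpl301 and rps102 ranked 52, 118 and 124 of 128. The Msa1 peaks of rpl3401, rpl2301, rps102, rpl3201, rpl301 and rps502 ranked 33, 55, 59, 87, 105 and 130 of 140. The deposited Poisson p-values, which are not adjusted, ran between 5.05e-06 (rpl2802) and 1.63e-05 (rpl301 and rps102) for Mei2, and between 2.15e-10 (rpl3401) and 3.4e-06 (rpl3201) for Msa1. The peaks were also narrow: 3 of 3 Mei2 and 5 of 6 Msa1 peaks had the smallest size in the lists, 200 nt, as did 76 of 128 and 94 of 140 peaks overall. The rpl2301 peak measured 252 nt. These sizes are the deposited ones, end minus start, whereas the bases counted within peaks below include both ends and so come to 1 nt more.

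**Figure D3:**
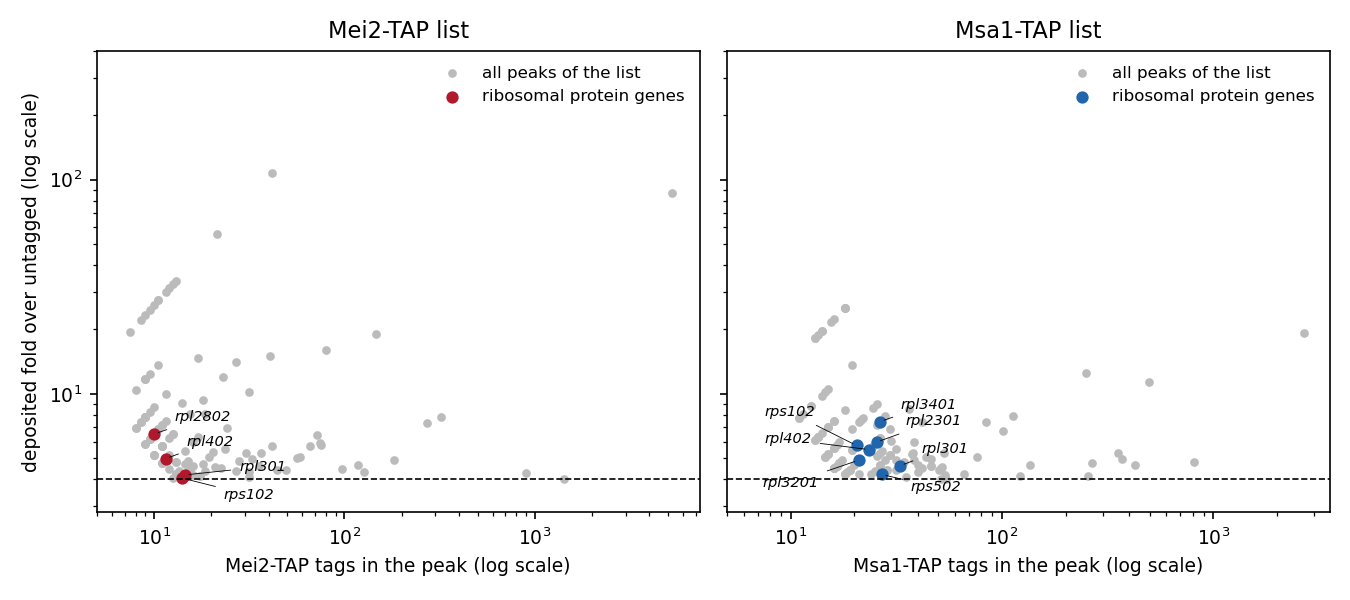
Deposited fold over untagged (vertical, log axis) against tags of the tagged library (horizontal, log axis) for all 128 peaks of the Mei2-TAP list (left) and all 140 of the Msa1-TAP list (right), with peaks on ribosomal protein genes coloured and named; the dashed line is a fold of 4. The coloured peaks lie among the many peaks of few tags, and those of rps102 and rpl301 in the Mei2-TAP list, at 4.05 and 4.19, lie next to the line.

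The last comparison concerned the place of the peaks in the genes. Positions are given along the RNA as a percentage of the annotated gene, at the midpoint of the stretch where peak and gene overlap. The rpl301 peaks lay at the 3′ end. The gene spans chrI:1756085-1757330 on the plus strand. Its Mei2 peak (chrI:1757146-1757346) was centred at 92.6% of the gene and covered 130 nt of coding sequence and all 55 nt of the 3′ UTR, and its Msa1 peak (chrI:1757104-1757304) was centred at 89.9% and covered 172 nt of coding sequence and 29 nt of 3′ UTR. The peaks shared 159 nt, 79.1% of each, and the Msa1 midpoint lay 42 nt further 5′.

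The rps102 peaks lay within the coding sequence, in the middle of the gene (chrI:898045-898962, minus strand). The Mei2 peak (chrI:898412-898612) was centred at 49.1% and the Msa1 peak (chrI:898497-898697) at 39.8%. They shared 116 nt, 57.7% of each, and the Msa1 midpoint lay 85 nt further 5′. On rpl402 (chrII:3636475-3637673, minus strand) the peaks shared 190 nt, 94.5% of each, at the 5′ end, and the Msa1 midpoint lay 11 nt further 5′. In each of these 3 genes the Msa1 midpoint was thus the more 5′ one, by less than the 200 nt width of a peak. With 1 library of each protein, the spread of a midpoint between libraries is not known.

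The rpl2802 peak (chrIII:656822-657022; gene chrIII:656625-657206, plus strand) was centred at 51.1% and lay wholly in coding sequence. No 5′ UTR is annotated for rpl2802, so its gene start is the first coding base. The rpl3201 peak (chrII:4351864-4352064; gene chrII:4351878-4352398, plus strand) began 14 nt before the annotated start, with 93.0% of it in the gene, and covered the 18 nt of 5′ UTR and 169 nt of coding sequence. Its centre lay at 17.9%, the most 5′ of the 9. The rpl3401 peak (chrI:4093372-4093572; gene chrI:4093344-4093798, minus strand) was centred at 71.8% and covered 144 nt of coding sequence and 57 nt of 3′ UTR.

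Of the 7 genes, 2 have an intron, rpl2301 and rps502, with 1 each, and the Msa1 peaks of both lay partly over it. The rpl2301 peak (chrI:3179571-3179823; gene chrI:3179343-3180003, minus strand) covered the whole 111 nt intron and 142 nt of coding sequence, with its centre at 46.4% of the gene. Counted from the gene start, the peak ran from 180 to 432 nt and the intron from 183 to 293 nt. Nearly all of the coding bases under the peak thus lay after the intron. The rps502 peak (chrI:3496905-3497105; gene chrI:3496388-3497400, minus strand) covered the last 117 nt of the 288 nt intron and the first 84 nt of the exon after it, and its centre, at 39.0%, lay in the intron. Reads across the splice junction are not in the lists, so the shares of spliced and unspliced RNA were not tested. Over the 9 peaks, centres lay between 17.9% and 92.6% of the gene, 8 in coding sequence and 1 in an intron, with no common place.

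**Figure D4:**
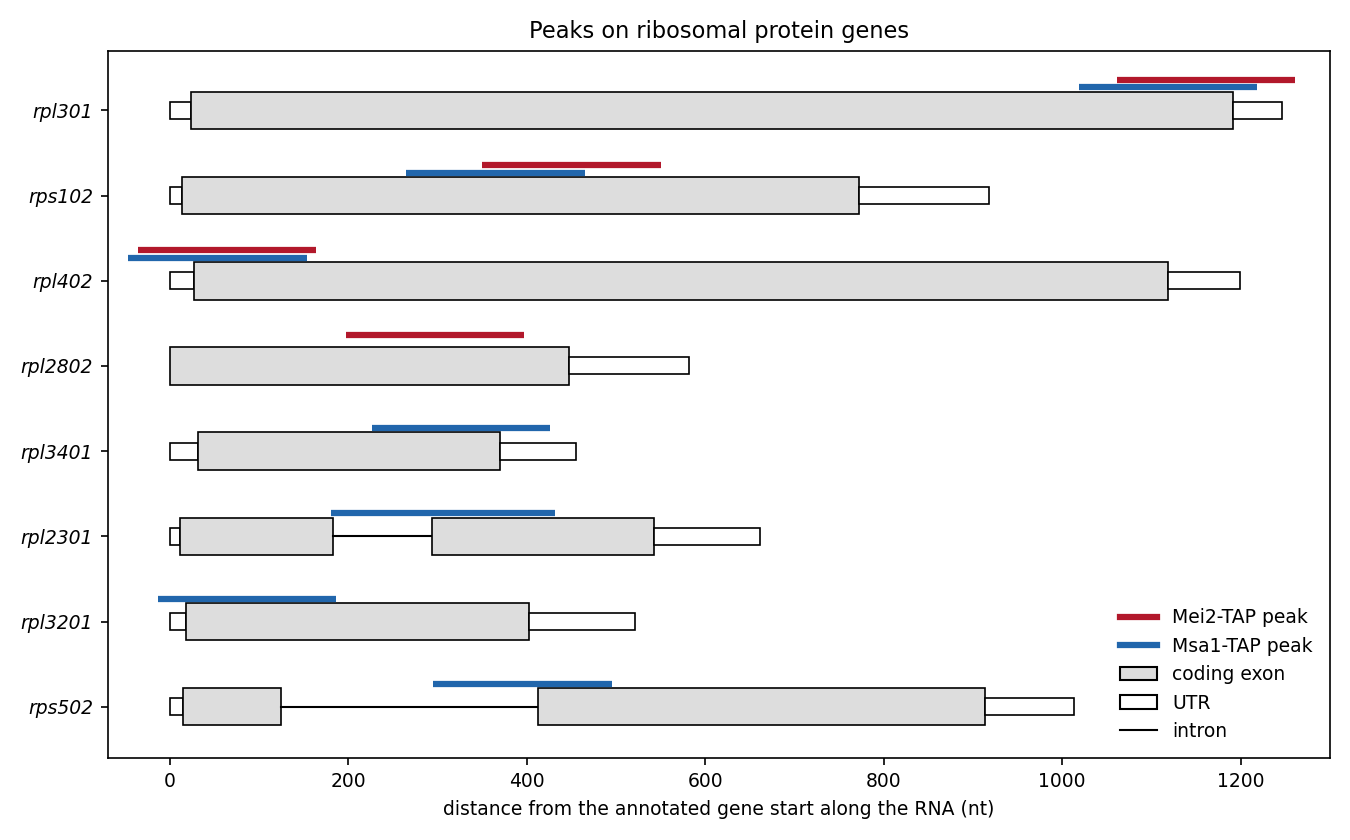
Gene models of the 7 genes and rpl402, drawn to scale by distance from the annotated gene start along the RNA in nt (horizontal axis), with coding exons in grey, UTRs in white and introns as a line; bars above each gene are the Mei2-TAP and Msa1-TAP peaks. The paired bars of rpl301, rps102 and rpl402 share 159, 116 and 190 nt, and the bars of rpl2301 and rps502 cover 111 and 117 nt of intron.

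Many of these proteins are also made from another gene copy, and the copies of rpl301, rpl2802, rpl2301, rpl3201, rpl3401 and rps102 were compared with them. None of these copies, rpl302, rpl2801, rpl2302, rpl3202, rpl3402 and rps101, lay under a peak of either list, and neither did rpl401, the copy of rpl402. Coding sequences matched their copy at 80.5% of positions for rps102, 84.9% for rpl3201, 85.3% for rpl3401, 85.5% for rpl2802, 88.1% for rpl2301 and 96.3% for rpl301. The proteins are closer than the genes: rpl2301 and its copy encode the same 139 residues, and rpl301 differs from its copy at 1 of 388 residues.

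Where a stretch of read length is the same in both copies, a read cannot be placed on either. Over windows of 50 nt, 74 of 152 in the Mei2 peak of rpl301 (48.7%) and 116 of 152 in its Msa1 peak (76.3%) had an exact copy in rpl302. The longest run shared by the rpl301 and rpl302 coding sequences is 848 nt, and the lines printed above differ at 1 of 130 bases. The rpl301 tags, the highest of the 7 genes, are therefore uncertain as to copy. In the peaks of rpl2802, rps102, rpl2301, rpl3201 and rpl3401, 6 in all, 0 windows had an exact copy elsewhere. Shorter or inexact matches were not searched genome-wide, and read length was not known. How reads that fit both copies were counted is not given in the sources used here.

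The motif of Mmi1 (TNAAAC, where N is T, C or G) was searched in the peaks, since meiRNA and other transcripts tied to Mei2 and Mmi1 carry it. On the RNA strand, 1 match lay in the Mei2 peak of rpl2802, 1 in each peak of rpl301 and 1 in each peak of rps102. The rpl301 match starts at base 1188 of the gene and runs from the last bases of the coding sequence into the 3′ UTR, so it is not complete in the line printed above. The rps102 and rpl2802 matches are those in capitals above. No match on the RNA strand lay in the Msa1 peaks of rpl2301, rpl3201, rpl3401 and rps502. On the other strand, 1 match lay in the Msa1 peak of rps102 and 0 in the rest of the 9 peaks. The rpl402 peaks each held 2 on its RNA strand, both outside the annotated gene. For reference, 22.4% of all 49049 windows of 201 nt in coding genes hold at least 1 match on the RNA strand, and 40.0% on either strand. The 9 peaks were chosen, so this is a description of their sequence and not evidence of a site.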

How the data were processed

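CLIP-Seq peak lists of Mei2-TAP and Msa1-TAP, each from 1 tagged library against the same untagged library, were used as deposited. Per the study's methods and notes, the authors aligned the reads to ASM294v2 with STAR, handled alignments with SAMtools and deepTools, and called peaks with HOMER; versions are not given in the sources used here. Libraries were strand-specific and amplified for 12 PCR cycles. Per the file headers, the tag signal is scaled to 10000000 tags. The deposited tags of a peak are estimated counts in steps of 0.5, and either the tagged or the untagged ones are scaled. Also deposited are a fold (the ratio of scaled tags), an unadjusted Poisson p-value from HOMER and a peak score, which was not compared.

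Library totals were recovered by dividing unscaled by scaled tags. In 119 of 119 Mei2 peaks with under 20 scaled untagged tags, the resulting untagged tags lay within 0.2 steps of a multiple of 0.5. The Msa1-TAP tags did so in 140 of 140 Msa1 peaks. Their total was fitted to give such steps, so this is not a check of it. Ratios have exact Clopper-Pearson 95% intervals, and levels have Poisson intervals. The recovery was tested on simulated tags in exact steps of 0.5, and the intervals on simulated whole Poisson counts that were not selected. These simulations do not cover amplification or the choice of peaks by fold. Genes were named where a peak overlapped them by 1 nt on either strand of the ASM294v3 annotation. Of 167 features in the study's ASM294v2 peak annotation, 162 had at least 1 end equal in ASM294v3, 15 had both, and 0 peaks lay past a chromosome end. Nuclear chromosome lengths are the same in both builds, and sequences were read from RefSeq ASM294v3. Promoters ran from 250 nt before to 50 nt after the gene start. Genes were chosen by name: all 7, every other cytosolic ribosomal protein gene under a peak, the gene copies, and every other gene under these peaks; 1 gene copy is not reported here. Cytosolic ribosomal protein genes were taken by symbol (rpl, rps or rpp), which leaves out ubiquitin fusions. The genes and lists were chosen with earlier results of these data known. Alternatives were the overlap rule, the gene assignment, a stricter threshold, library totals without peak tags, 1 added tag and the midpoint of the whole peak. Replicate lists were not analysed here, so no test was made. Python 3.11.15, numpy 2.4.6, pandas 2.3.3, scipy 1.17.1, biopython 1.88 and matplotlib 3.10.9 were used.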

Additional observations from a re-analysis of the deposited data

How the results depend on the processing

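Counts of 3 genes under a Mei2 peak, 6 under an Msa1 peak and 2 under both were the same, with the same genes, when at least 50% of the peak had to lie in the gene and when only the gene with the longest overlap was named. With a fold of at least 8 and a p of at most 1e-10, the counts were 0 for Mei2, 0 for Msa1 and 0 for both, as no fold on these genes reached 8 and the lowest p was 2.15e-10. The median fold over all peaks, 5.86 for Mei2 and 5.37 for Msa1, was also under 8. Most peaks of either list thus failed this threshold as well, and the share that passed was not counted. The counts of 0 are therefore not a result about these genes. The 9 ratios, selected to be high, stayed above 1 with 1 tag added in both libraries (3.55 to 5.51), but 5 of them then fell under the list minimum of 4 (rpl301 and rps102 in the Mei2 list, and rpl301, rpl3201 and rps502 in the Msa1 list). They also stayed above 1 with totals that leave out the tags of listed peaks (4.27 to 7.61). With the midpoint of the whole peak, the rpl3201 peak was centred at 16.5% of the gene, beside 17.9%, because it begins before the annotated start; the other 8 positions moved by less. No replicate could be left out, as a list has 1 tagged library. No paired analysis was possible because the lists hold no values of the second libraries. Counts of 2 to 5 untagged tags limit every ratio, and p-values, strand and RNA abundance could not be checked.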

Other observations

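The HomolD box, the promoter element CAGTCACA that fission yeast ribosomal protein genes share, was searched on both strands of the promoters as a feature that the peak lists do not use. A match lay in 6 of the 7 promoters (all but rps502), in 88 of the 138 cytosolic ribosomal protein genes (63.8%) and in 137 of 5112 coding genes (2.68%). Relative to the gene start it began at -44 in rps102, at -45 in rpl2301 and rpl3401, at -49 in rpl301 and rpl3201, and at -74 in rpl2802. The annotation gives rpl2802 no 5′ UTR, so its position is counted from the first coding base and is not comparable with the rest. The rpl402 promoter held no match. The box lies in DNA upstream of the RNA, and a match is a description of the promoter.

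Among 78 nuclear genes for mitochondrial ribosomal proteins, 0 lay under a Mei2 peak and 1 (1.28%) under an Msa1 peak. Over all coding genes the shares were 2.25% and 2.54%. With so few genes expected at those shares, these counts show no difference from coding genes in general. That gene, mrpl9, for the mitochondrial protein uL3m, is named here after its values were seen. Its peak held 17 Msa1-TAP tags against 2.5 untagged tags, a fold of 4.77 (1.27 to 31.3), and lay wholly in coding sequence, 2.75 tags inside the threshold. It encodes the mitochondrial relative of the protein encoded by rpl301.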
